A study of Mus musculus with 12 samples.

Results

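Genes of cholesterol synthesis and of its control by the sterol regulatory element binding proteins (SREBPs) were followed in mouse endometrium, the inner lining of the uterus, 8 h after mating. A list of 36 genes was taken by name, and 35 of them had a transcript cluster that carried their symbol alone, out of 19938 such genes on the array. *Acat2*, which joins acetyl-CoA units at the head of the pathway, was not analysed here. Of the 35 genes, 30 had 1 cluster and 5 had 2, and the cluster with the higher mean over the 12 arrays stood for the gene.

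Cells build cholesterol from acetyl-CoA through mevalonate, farnesyl diphosphate, squalene and lanosterol. When the sterol content of the endoplasmic reticulum is low, the escort protein SCAP carries the SREBPs to the Golgi, where cleavage frees the part that enters the nucleus and switches on their target genes, and INSIG proteins hold the complex back when sterol is plentiful. SREBP2, the product of *Srebf2*, acts mainly on sterol genes, and SREBP1, the product of *Srebf1*, mainly on genes of fatty acid synthesis. The genes were therefore read as a sterol arm of 18 genes (16 enzymes in pathway order, the sterol carrier *Stard4* and the SREBP2 target *Tmem97*), 5 regulators (*Insig1*, *Insig2*, *Scap*, *Srebf1* and *Srebf2*) and a fatty acid arm of 12 genes.

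The females were CBAF1 mice, the F1 cross of CBA and C57Bl/6, aged 9 to 16 weeks. The intact group had mated with intact BALB/c males and the vasectomised group with vasectomised BALB/c males, and both sets of males were aged 12 to 28 weeks. The ejaculate of vasectomised males holds seminal plasma without sperm or the secretions of testis and epididymis. Controls were unmated virgin females, labelled as in estrus and, by the design text, collected at 2000 h of pro-estrus, so hour and cycle stage cannot be told apart from mating in either comparison with controls. Both mated groups were collected 8 h after mating. Each of the 4 arrays per group held 300 ng of RNA from a pool of 4 of 16 females, which makes every error below a spread between pools.

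Array medians lay between 7.25 and 7.32 on the deposited log2 scale and the lowest correlation between arrays of a group was 0.983. Epithelial keratins were bright, with means of 13.47 for *Krt8* and 13.20 for *Krt19*. The 7 genes listed for fat ran from 5.48 for *Adipoq* and 5.69 for *Lep* to 6.97 for *Plin1*, 9.40 for *Pparg* and 10.18 for *Lipe*. The 4 genes listed for ovary and oviduct averaged 5.51 for *Cyp11a1*, 5.78 for *Cyp17a1*, 6.38 for *Star* and 6.63 for *Inha*. The 35 genes had means from 7.79 to 13.10, all above those of 58.0% of clusters. Since signal depends on each gene's probes, differences were tested only between arrays, and the mean signals of different genes do not rank their amounts. A call required that the limma fit of all 35556 clusters put the gene at or beyond 1.5-fold with a Benjamini-Hochberg adjusted p no higher than 0.05. Values are log2 signals for arrays 1 to 4 of each group in turn, and differences are log2 differences of group means with the standard error of the fit.

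Endometrium of intact-mated females held higher levels of many sterol synthesis genes than that of vasectomised-mated females, and fewer of these genes passed the test against unmated females. Of the 35 genes, 9 were called higher in the intact group than in controls and 1 was called lower, beside a background of 1.95% and 1.55% of all clusters. Against the vasectomised group 18 were called higher and 0 lower, beside backgrounds of 0.394% and 0.402%, and *Gpam*, lower with adjusted p = 0.00656, missed the call by its fold-change alone. Between the vasectomised group and controls limma called 0 genes in either direction, beside 0.987% higher and 0.439% lower of all clusters, and at an unadjusted p under 0.05 there were 0 higher and 10 lower, beside 11.8% and 7.09%. Both comparisons with controls rest on the same 4 control arrays, and both comparisons of the intact group on the same 4 intact arrays.

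In bulk RNA a lower value can stand for fewer cells of a type or for less RNA per cell, and these cannot be told apart here. The count between the mated groups was 8 in place of 18 when each cluster kept its own variance without moderation, as in the test named in the methods. The counts also leaned on single pools. With 1 array left out, the intact group was called higher than the vasectomised group for 6 genes without intact array 2 or intact array 4, for 8 without vasectomised array 3, for 7 without vasectomised array 4, for 12 without vasectomised array 1 and for 20 without vasectomised array 2. *Mvd*, *Lss*, *Cyp51*, *Hsd17b7*, *Dhcr7* and *Lpin1* were the 6 that stayed called whichever array was left out. Over controls, 13 genes were called higher without control array 4 and 7 without control array 1 or 2 or intact array 2 or 4.

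**Figure D1:**
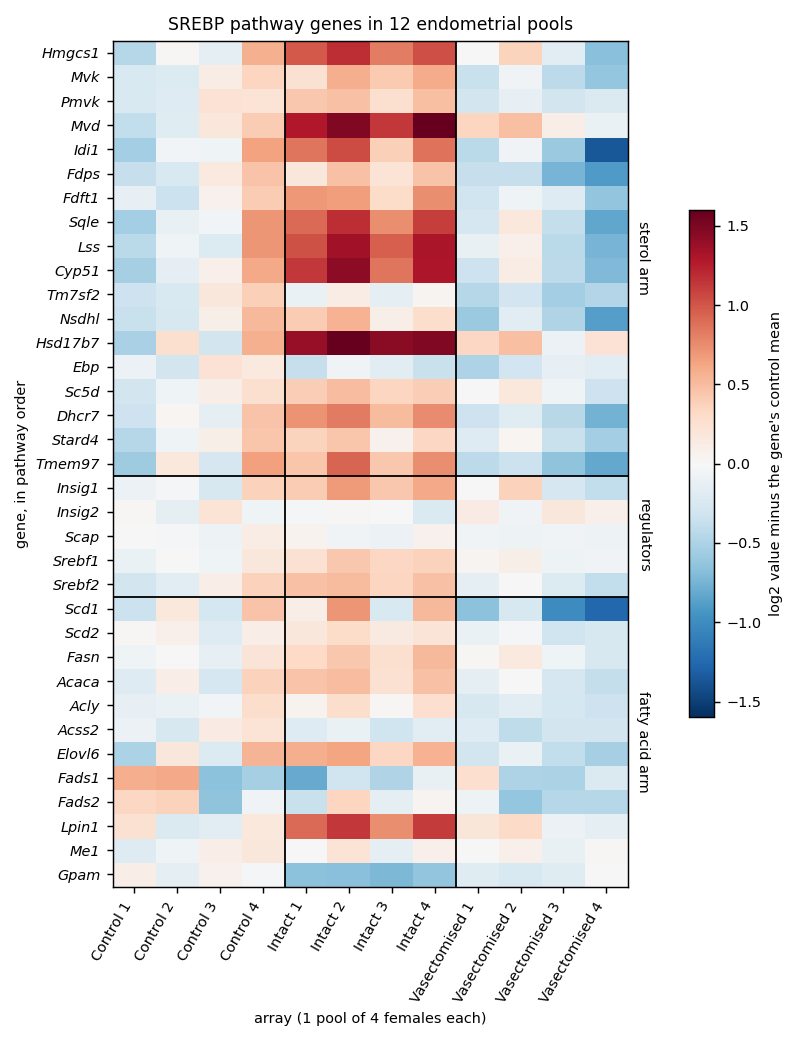
Log2 value of each of the 35 genes minus its own control mean, by array, in pathway order, with red for higher and blue for lower than the control mean. In the sterol arm the 4 intact-mated columns are red for most genes, control array 4 is also red, and vasectomised array 4 holds most of the darkest blue.

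Since the sterol genes are known to share sterol regulatory elements and nearby boxes for the factor NF-Y in their promoters, the letters upstream of the genes were read from RefSeq on GRCm38.p6. Of the 35 genes 28 had a window of 250 bases before to 50 bases after the start, and *Fads1*, *Fdft1*, *Fdps*, *Scd1*, *Scd2*, *Sqle* and *Stard4* had none. The 250 bases before the start are printed for 4 sterol genes that were called higher in the intact group in both comparisons and for *Lpin1* and *Gpam*, the fatty acid genes that were called higher and lower than controls. They lie at chr13:119690101-119690350, plus strand, for *Hmgcs1*, chr8:122443423-122443672, minus strand, for *Mvd*, chr5:4104698-4104947, minus strand, for *Cyp51*, chr1:169969206-169969455, minus strand, for *Hsd17b7*, chr12:16610967-16611216, minus strand, for *Lpin1* and chr19:55127239-55127488, minus strand, for the 1 of 2 windows of *Gpam* that held matches. Each is written 5′ to 3′ on the strand of its gene, and capitals mark matches to TCACNCCAC or CACCNCAC (forms of the sterol regulatory element), CACGTG (the E-box) or CCAAT (the NF-Y box), which reads ATTGG on the other strand.
Hmgcs1: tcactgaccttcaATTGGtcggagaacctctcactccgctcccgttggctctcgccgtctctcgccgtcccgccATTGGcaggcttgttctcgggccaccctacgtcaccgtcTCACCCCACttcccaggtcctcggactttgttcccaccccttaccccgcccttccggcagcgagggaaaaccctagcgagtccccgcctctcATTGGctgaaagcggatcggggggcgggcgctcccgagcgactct
Mvd: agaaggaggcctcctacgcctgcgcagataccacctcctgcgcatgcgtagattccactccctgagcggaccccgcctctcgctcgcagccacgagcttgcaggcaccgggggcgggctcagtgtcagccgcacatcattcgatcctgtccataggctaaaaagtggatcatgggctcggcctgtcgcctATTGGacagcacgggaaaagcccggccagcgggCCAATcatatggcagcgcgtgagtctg
Cyp51: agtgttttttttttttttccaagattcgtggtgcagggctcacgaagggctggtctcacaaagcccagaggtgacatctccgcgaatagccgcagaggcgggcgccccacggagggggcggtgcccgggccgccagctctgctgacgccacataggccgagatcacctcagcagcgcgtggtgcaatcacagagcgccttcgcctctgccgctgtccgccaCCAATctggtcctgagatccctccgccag
Hsd17b7: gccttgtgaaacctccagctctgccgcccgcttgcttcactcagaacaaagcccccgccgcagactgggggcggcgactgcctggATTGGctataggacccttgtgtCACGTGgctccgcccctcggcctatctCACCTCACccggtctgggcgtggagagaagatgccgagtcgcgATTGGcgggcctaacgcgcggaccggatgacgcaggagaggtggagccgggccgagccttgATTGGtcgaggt
Lpin1: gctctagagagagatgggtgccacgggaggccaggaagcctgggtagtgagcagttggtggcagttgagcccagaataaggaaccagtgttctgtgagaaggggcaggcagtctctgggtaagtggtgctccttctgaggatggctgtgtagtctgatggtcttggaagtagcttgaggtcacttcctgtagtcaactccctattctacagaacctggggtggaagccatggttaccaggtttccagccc
Gpam: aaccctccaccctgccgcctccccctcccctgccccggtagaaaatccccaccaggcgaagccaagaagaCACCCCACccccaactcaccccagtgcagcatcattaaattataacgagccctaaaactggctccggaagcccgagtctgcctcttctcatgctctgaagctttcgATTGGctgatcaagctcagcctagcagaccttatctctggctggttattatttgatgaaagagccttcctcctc
CCAAT, searched like the other letters on both strands of the whole window, lay in at least 1 window of 14 of the 14 sterol arm genes that had one, of 4 of the 5 regulators and of 5 of 9 fatty acid genes, beside 41.1% of all 27025 genes with a window and 41.9% of the 7431 genes at least as bright as the dimmest of the 35. Counted by windows this was 82.4% of 17 in the sterol arm and 37.4% of all. The exact letters TCACNCCAC were found in the window of *Hmgcs1* alone, starting 137 bases before the start, where they overlap a CACCNCAC match, and in 1.44% of all genes. CACCNCAC was found in 3 of the 28 genes (*Hmgcs1*, *Hsd17b7* and *Gpam*), or 10.7%, beside 7.22% of all genes. CACGTG was found in 3 of 14 sterol arm genes (*Hsd17b7*, *Dhcr7* and *Sc5d*) and 2 of 5 regulators (*Insig1* and *Scap*), in 0 of 9 fatty acid genes, and in 8.09% of all genes and 12.3% of those at least as bright as the dimmest of the 35. The window of *Lpin1* held none of these letters, which says nothing of other sites or of looser forms of the element.

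The first steps of the pathway make mevalonate and turn it into isoprenoids. *Hmgcs1*, the cytosolic synthase that makes HMG-CoA, and *Mvd*, which decarboxylates mevalonate diphosphate, were called higher in the intact group than in controls, and all 6 genes from *Hmgcs1* to *Fdps* were called higher than in the vasectomised group. *Hmgcs1* read 9.31, 9.79, 9.62 and 10.33 in the control arrays, 10.74, 10.95, 10.59 and 10.80 in the intact-mated arrays and 9.77, 10.12, 9.58 and 9.09 in the vasectomised-mated arrays. All 4 intact pools lay above both other groups, which overlapped. The intact group exceeded controls 2.01-fold, a log2 difference of 1.01 ± 0.22 (SE, adjusted p = 0.013), and the vasectomised group 2.19-fold, 1.13 ± 0.22 (SE, adjusted p = 0.0252). *Mvd* read 8.36, 8.55, 8.93 and 9.16 in the control arrays, 10.03, 10.23, 9.88 and 10.38 in the intact-mated arrays and 9.09, 9.23, 8.85 and 8.64 in the vasectomised-mated arrays. Its lowest intact pool stood 0.72 above the highest control, and the vasectomised pools lay within or just above the control range. The log2 difference was 1.38 ± 0.18 (SE, adjusted p = 0.000402) against controls and 1.17 ± 0.18 (SE, adjusted p = 0.00996) against the vasectomised group, and *Mvd* was called in both under every alternative.

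*Mvk* and *Pmvk*, the kinases that phosphorylate mevalonate in turn, were called between the mated groups and not against controls. *Mvk* measured 8.38, 8.41, 8.75 and 8.97 in the control arrays, 8.88, 9.21, 9.05 and 9.22 in the intact-mated arrays and 8.27, 8.57, 8.21 and 8.01 in the vasectomised-mated arrays. Control array 4 reached into the intact range, while the vasectomised pools lay wholly below it. Its log2 difference was 0.46 ± 0.15 (SE, adjusted p = 0.0699) over controls and 0.83 ± 0.15 (SE, adjusted p = 0.0169) over the vasectomised group. *Pmvk* measured 7.49, 7.54, 7.96 and 7.96 in the control arrays, 8.17, 8.20, 7.996 and 8.22 in the intact-mated arrays and 7.45, 7.60, 7.45 and 7.50 in the vasectomised-mated arrays. The intact pools lay above all others, but the difference from controls, 0.41 ± 0.11 (SE, adjusted p = 0.0357), was under 1.5-fold, and that from the vasectomised group, 0.65 ± 0.11 (SE, adjusted p = 0.0146), was just over it.

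*Idi1* makes the isomer that the next enzyme needs, and *Fdps* joins isoprene units into farnesyl diphosphate. *Idi1* read 8.94, 9.45, 9.43 and 10.14 in the control arrays, 10.34, 10.53, 9.87 and 10.35 in the intact-mated arrays and 9.06, 9.44, 8.90 and 8.14 in the vasectomised-mated arrays. The spread within groups was wide, with control array 4 above intact array 3 and vasectomised array 4 far below its group. The difference was 0.78 ± 0.28 (SE, adjusted p = 0.104) against controls and 1.39 ± 0.28 (SE, adjusted p = 0.0265) against the vasectomised group, where it was 2.62-fold. *Fdps* read 9.49, 9.61, 10.01 and 10.31 in the control arrays, 10.04, 10.33, 10.07 and 10.31 in the intact-mated arrays and 9.49, 9.49, 9.11 and 8.95 in the vasectomised-mated arrays. Intact and control pools overlapped, the vasectomised pools lay below all intact pools, and vasectomised arrays 1 and 2 equalled the lowest control, array 1, at the 2 decimals given. *Fdps* differed by 0.93 ± 0.18 (SE, adjusted p = 0.0216) between the mated groups, by 0.33 ± 0.18 (SE, adjusted p = 0.302) between intact and control and by -0.60 ± 0.18 (SE, adjusted p = 0.0874) between vasectomised and control. Without control array 1 that last difference was called, the only call that leaving out 1 array gave between vasectomised-mated and unmated females.

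The committed sterol steps, from squalene to the first demethylation of lanosterol, formed the stretch where all 4 genes were called higher than in controls and all 4 higher than in the vasectomised group. *Fdft1*, squalene synthase, was the weakest of them over controls. *Fdft1* read 10.63, 10.41, 10.84 and 11.17 in the control arrays, 11.46, 11.43, 11.05 and 11.50 in the intact-mated arrays and 10.44, 10.70, 10.56 and 10.13 in the vasectomised-mated arrays. Intact array 3 lay below control array 4, and the difference from controls, 0.60 ± 0.16 (SE, adjusted p = 0.0375), sat on the 1.5-fold threshold and was lost under 14 of 26 alternatives, whereas that from the vasectomised group was 0.90 ± 0.16 (SE, adjusted p = 0.018). Its second cluster gave 0.58 against controls, just short of the threshold.

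*Sqle*, squalene epoxidase, a rate-limiting enzyme of the branch, showed larger differences than *Fdft1*. *Sqle* read 8.81, 9.24, 9.32 and 10.06 in the control arrays, 10.26, 10.54, 10.10 and 10.47 in the intact-mated arrays and 9.09, 9.52, 8.98 and 8.53 in the vasectomised-mated arrays. The intact pools topped every control by a narrow margin, since control array 4 came within 0.04 of intact array 3. It was 1.98-fold over controls, 0.98 ± 0.25 (SE, adjusted p = 0.0239), and 2.49-fold over the vasectomised group, 1.31 ± 0.25 (SE, adjusted p = 0.0193), and the call over controls was lost without control array 1 or 2 or intact array 2 or 4. *Lss*, lanosterol synthase, closes the ring system. *Lss* read 8.31, 8.67, 8.52 and 9.44 in the control arrays, 9.75, 10.08, 9.68 and 10.04 in the intact-mated arrays and 8.61, 8.82, 8.30 and 7.996 in the vasectomised-mated arrays. Its intact pools overlapped no other pool, with differences of 1.15 ± 0.23 (SE, adjusted p = 0.00701) and 1.46 ± 0.23 (SE, adjusted p = 0.0112). *Cyp51*, the demethylase that works on lanosterol, showed the largest difference between the mated groups of the 35 genes, 2.86-fold. *Cyp51* read 8.80, 9.19, 9.42 and 9.95 in the control arrays, 10.47, 10.76, 10.19 and 10.63 in the intact-mated arrays and 9.001, 9.46, 8.92 and 8.63 in the vasectomised-mated arrays. All intact pools lay above all controls and all vasectomised pools, and the log2 differences were 1.18 ± 0.23 (SE, adjusted p = 0.00593) and 1.51 ± 0.23 (SE, adjusted p = 0.00914). The calls of *Cyp51* in both comparisons and of *Lss* over the vasectomised group held under every alternative.

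The later steps were mixed. *Hsd17b7*, a 3-keto-sterol reductase, had the largest difference from controls of the 35 genes. *Hsd17b7* read 8.09, 8.88, 8.32 and 9.18 in the control arrays, 10.01, 10.43, 10.06 and 10.10 in the intact-mated arrays and 8.95, 9.10, 8.53 and 8.85 in the vasectomised-mated arrays. Its intact pools stood 0.82 or more above every other pool, and vasectomised pools lay within the control range. The differences were 1.53 ± 0.21 (SE, adjusted p = 0.000576) over controls, or 2.89-fold, and 1.29 ± 0.21 (SE, adjusted p = 0.0119) over the vasectomised group. *Dhcr7*, which turns 7-dehydrocholesterol into cholesterol, also passed in both. *Dhcr7* read 8.18, 8.54, 8.36 and 8.97 in the control arrays, 9.23, 9.34, 9.02 and 9.27 in the intact-mated arrays and 8.18, 8.32, 8.06 and 7.75 in the vasectomised-mated arrays. Intact pools overlapped neither group, and the differences were 0.70 ± 0.16 (SE, adjusted p = 0.0153) and 1.13 ± 0.16 (SE, adjusted p = 0.00719).

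*Nsdhl*, which acts with the demethylating oxidase, was called only against the vasectomised group. *Nsdhl* read 9.73, 9.83, 10.17 and 10.60 in the control arrays, 10.48, 10.64, 10.18 and 10.37 in the intact-mated arrays and 9.48, 9.91, 9.60 and 9.20 in the vasectomised-mated arrays. Intact and control pools overlapped, with a difference of 0.33 ± 0.19 (SE, adjusted p = 0.341), while the mated groups differed by 0.87 ± 0.19 (SE, adjusted p = 0.0363). That call was lost without any 1 of the 4 intact arrays and without vasectomised array 1, 3 or 4. *Sc5d*, a desaturase, had non-overlapping intact pools and a small difference. *Sc5d* read 9.63, 9.86, 10.04 and 10.18 in the control arrays, 10.31, 10.41, 10.27 and 10.31 in the intact-mated arrays and 9.93, 10.09, 9.85 and 9.59 in the vasectomised-mated arrays. It gave 0.40 ± 0.12 (SE, adjusted p = 0.0564) over controls and 0.46 ± 0.12 (SE, adjusted p = 0.0688) over the vasectomised group.

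*Tm7sf2* and *Ebp*, a sterol reductase and a sterol isomerase, did not follow their neighbours in the pathway. *Tm7sf2* read 8.79, 8.88, 9.31 and 9.50 in the control arrays, 9.01, 9.24, 8.97 and 9.16 in the intact-mated arrays and 8.66, 8.81, 8.57 and 8.65 in the vasectomised-mated arrays. Its intact and control means were 9.10 ± 0.13 and 9.12 ± 0.34 (SD, n = 4), and the vasectomised pools lay under the intact pools without passing the test, 0.42 ± 0.14 (SE, adjusted p = 0.138). *Ebp* ranged from 9.51 to 9.82 in intact pools, from 9.58 to 10.11 in controls and from 9.38 to 9.74 in vasectomised pools, the only sterol arm gene whose mated groups overlapped. Its differences were -0.24 ± 0.12 (SE, adjusted p = 0.286) from controls and 0.04 ± 0.12 (SE, adjusted p = 0.91) between the mated groups, with an interval of the latter from -0.23 to 0.31.

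The remaining members of the sterol arm are targets outside the enzyme chain. *Tmem97*, a membrane protein of cholesterol handling also known as the sigma-2 receptor, was called between the mated groups. *Tmem97* read 8.19, 8.93, 8.49 and 9.41 in the control arrays, 9.19, 9.69, 9.18 and 9.49 in the intact-mated arrays and 8.33, 8.41, 8.12 and 7.94 in the vasectomised-mated arrays. Control array 4 overlapped the intact pools and the vasectomised pools were all low, so the difference was 1.19 ± 0.22 (SE, adjusted p = 0.0199) against the vasectomised group and 0.64 ± 0.22 (SE, adjusted p = 0.1) against controls. Its second, dimmer cluster gave 0.79 between the mated groups with adjusted p = 0.0508. *Stard4* carries sterol between membranes. *Stard4* read 8.30, 8.69, 8.85 and 9.20 in the control arrays, 9.11, 9.21, 8.83 and 9.09 in the intact-mated arrays and 8.55, 8.78, 8.40 and 8.22 in the vasectomised-mated arrays. The mated groups did not overlap but the difference, 0.57 ± 0.17 (SE, adjusted p = 0.106), did not pass.

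Over the whole sterol arm 8 of 18 genes were called higher and 0 lower in the intact group than in controls. Of all clusters 1.95% were called higher and 1.55% lower. The median log2 difference was 0.62 beside 0.006 over all clusters. Arrays did not overlap for 9 of the 18, all higher, beside 8.05% of all clusters higher and 6.18% lower. Between the mated groups 14 of 18 were called higher, beside 0.394% of all clusters, and the median was 1.03 beside -0.0018 over all clusters. The mated groups did not overlap for 17 of 18, all higher, beside 6.62% of all clusters higher and 7.34% lower. Between the vasectomised group and controls 16 of 18 log2 differences were negative, with a median of -0.32 beside 0.0097 over all clusters. At an unadjusted p under 0.05, 7 of 18 were lower, beside 7.09% of all clusters. Without overlap 1, *Fdps*, was lower, beside 3.62% of all clusters lower and 7.06% higher.

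**Figure D2:**
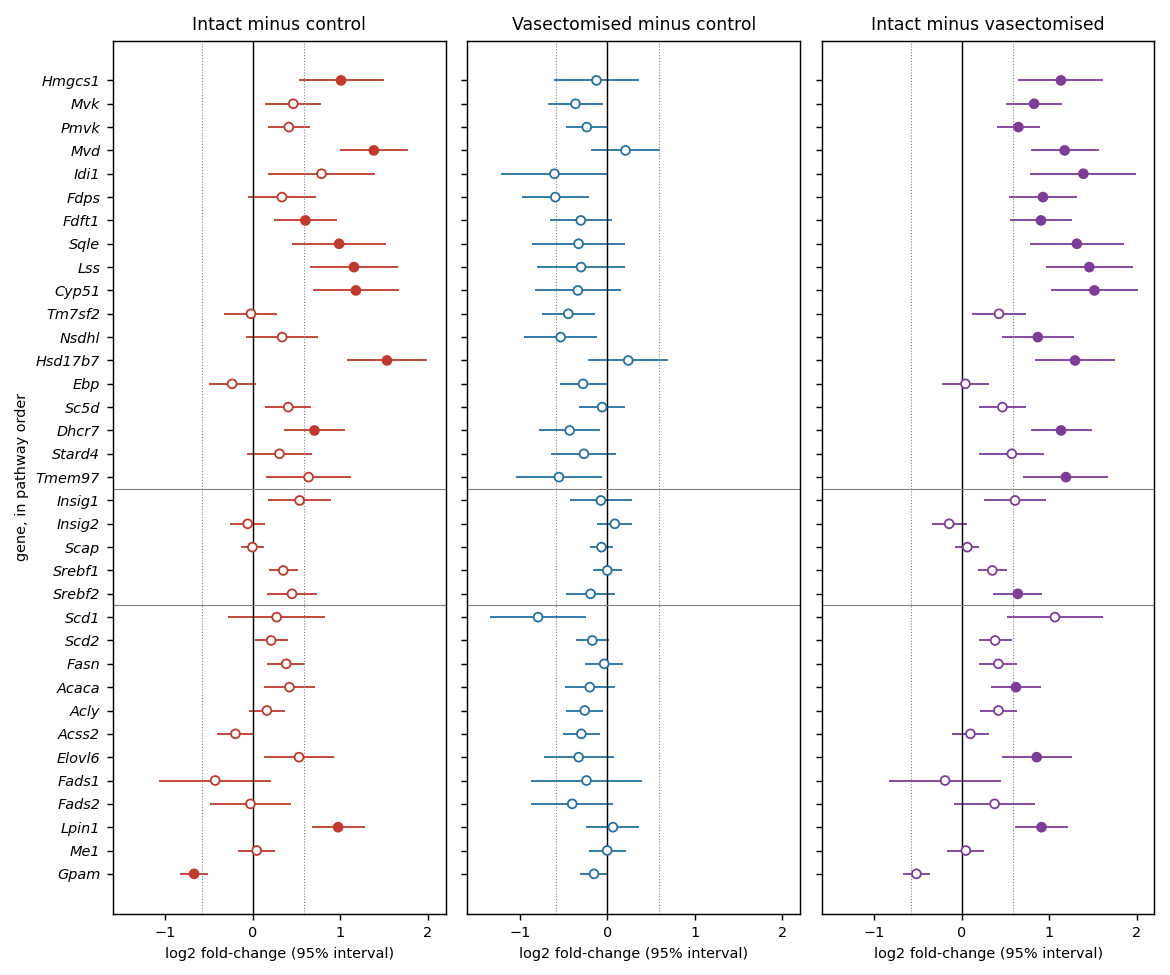
Log2 fold-change of each gene in pathway order for the 3 comparisons, with 95% intervals as lines, filled points for called genes and dotted lines at 1.5-fold. In the sterol arm 8 of 18 points are filled for intact minus control and 14 of 18 for intact minus vasectomised, and the comparison of the vasectomised group with controls holds none.

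Of the 5 regulators 0 were called against controls in either mated group and 1 was called between the mated groups, *Srebf2*, which encodes SREBP2. Of all clusters 1.95% were called higher and 1.55% lower in the intact group than in controls. The shares were 0.987% and 0.439% for the vasectomised group against controls, and 0.394% and 0.402% between the mated groups. For 5 genes, 0 calls against controls is near these shares. *Srebf2* read 10.53, 10.65, 10.93 and 11.19 in the control arrays, 11.29, 11.33, 11.17 and 11.29 in the intact-mated arrays and 10.67, 10.83, 10.61 and 10.43 in the vasectomised-mated arrays. Its intact pools lay above all vasectomised pools and overlapped the highest control, with differences of 0.64 ± 0.13 (SE, adjusted p = 0.0278) between the mated groups and 0.45 ± 0.13 (SE, adjusted p = 0.0483) over controls, the latter under 1.5-fold. The call was lost without intact array 2, 3 or 4 or vasectomised array 1, 3 or 4. *Srebf1* encodes SREBP1. *Srebf1* read 9.03, 9.15, 9.07 and 9.32 in the control arrays, 9.39, 9.58, 9.48 and 9.50 in the intact-mated arrays and 9.18, 9.24, 9.06 and 9.08 in the vasectomised-mated arrays. All intact pools lay above all others by a small step, 0.35 ± 0.08 (SE, adjusted p = 0.012) over controls and 0.35 ± 0.08 (SE, adjusted p = 0.0348) over the vasectomised group, which is under the fold threshold.

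*Insig1*, itself an SREBP target that retains the SCAP complex, had intact pools above all others. *Insig1* read 10.42, 10.50, 10.26 and 10.89 in the control arrays, 10.92, 11.20, 10.96 and 11.13 in the intact-mated arrays and 10.52, 10.88, 10.25 and 10.13 in the vasectomised-mated arrays. Its differences, 0.53 ± 0.16 (SE, adjusted p = 0.0605) and 0.61 ± 0.16 (SE, adjusted p = 0.075), missed the adjusted threshold. *Insig2*, a related retention factor, ran from 9.15 to 9.39 in intact pools, from 9.22 to 9.60 in controls and from 9.32 to 9.57 in vasectomised pools. *Scap* stayed between 9.65 and 9.86 on all 12 arrays, with differences of -0.01 ± 0.06 (SE, adjusted p = 0.969) from controls and 0.06 ± 0.06 (SE, adjusted p = 0.668) between the mated groups. Between the mated groups the log2 differences of *Srebf1*, *Srebf2* and *Insig1* lay under the sterol arm's median of 1.03, and *Scap* and *Insig2* overlapped in all 3 comparisons.

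The fatty acid arm was split. Of its 12 genes 1 was called higher (*Lpin1*) and 1 lower (*Gpam*) in the intact group than in controls, beside 1.95% and 1.55% of all clusters. Against the vasectomised group 3 were called higher (*Acaca*, *Elovl6* and *Lpin1*) and 0 lower, beside 0.394% and 0.402%. The median log2 differences were 0.18 and 0.40, and -0.22 between the vasectomised group and controls. *Lpin1* encodes lipin 1, a phosphatidate phosphatase of triglyceride synthesis. *Lpin1* read 8.47, 7.99, 8.05 and 8.39 in the control arrays, 9.13, 9.36, 8.97 and 9.34 in the intact-mated arrays and 8.41, 8.53, 8.13 and 8.07 in the vasectomised-mated arrays. Every intact pool stood above every other pool, and vasectomised and control pools overlapped. The difference was 0.97 ± 0.14 (SE, adjusted p = 0.000775) over controls, 1.96-fold, and 0.91 ± 0.14 (SE, adjusted p = 0.00996) over the vasectomised group.

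*Gpam*, the mitochondrial acyltransferase that starts glycerolipid synthesis, went the other way. *Gpam* read 9.996, 9.75, 9.97 and 9.86 in the control arrays, 9.23, 9.22, 9.17 and 9.26 in the intact-mated arrays and 9.70, 9.66, 9.71 and 9.90 in the vasectomised-mated arrays. Its intact pools were tight and lay under every other pool. The log2 difference was -0.67 ± 0.07 (SE, adjusted p = 9.81e-05) from controls, which is 1.59-fold lower, and -0.52 ± 0.07 (SE, adjusted p = 0.00656) from the vasectomised group, which is 1.43-fold lower and under the fold threshold. *Lpin1* and *Gpam* kept their calls against controls under every alternative except a threshold of 2-fold.

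*Acaca*, acetyl-CoA carboxylase 1, commits carbon to fatty acid synthesis. *Acaca* read 8.94, 9.26, 8.89 and 9.52 in the control arrays, 9.61, 9.64, 9.39 and 9.62 in the intact-mated arrays and 8.99, 9.15, 8.89 and 8.77 in the vasectomised-mated arrays. Intact pools lay above the vasectomised pools and overlapped control array 4, with 0.62 ± 0.13 (SE, adjusted p = 0.0334) between the mated groups. Its second, dimmer cluster gave 0.39 with adjusted p = 0.229, which is not called. *Elovl6* elongates the product of fatty acid synthase. *Elovl6* read 8.55, 9.24, 8.85 and 9.60 in the control arrays, 9.64, 9.70, 9.40 and 9.61 in the intact-mated arrays and 8.77, 8.95, 8.66 and 8.53 in the vasectomised-mated arrays. It differed by 0.86 ± 0.18 (SE, adjusted p = 0.0337) between the mated groups and 0.53 ± 0.18 (SE, adjusted p = 0.0975) from controls. The calls of *Acaca* and *Elovl6* were lost without any 1 intact array and without vasectomised array 1, 3 or 4.

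*Fasn*, fatty acid synthase, had intact pools above all others. *Fasn* read 11.10, 11.17, 11.05 and 11.38 in the control arrays, 11.50, 11.60, 11.43 and 11.69 in the intact-mated arrays and 11.20, 11.34, 11.10 and 10.92 in the vasectomised-mated arrays. Its differences of 0.38 ± 0.10 (SE, adjusted p = 0.0317) and 0.42 ± 0.10 (SE, adjusted p = 0.0523) were under 1.5-fold. *Scd2* and *Scd1* encode desaturases that make monounsaturated fatty acids. *Scd2* read 13.11, 13.18, 12.88 and 13.21 in the control arrays, 13.28, 13.39, 13.24 and 13.30 in the intact-mated arrays and 12.99, 13.08, 12.77 and 12.84 in the vasectomised-mated arrays. The intact pools of *Scd2* lay above all others by little, 0.21 ± 0.09 (SE, adjusted p = 0.172) and 0.38 ± 0.09 (SE, adjusted p = 0.0428). *Scd1* read 8.82, 9.33, 8.87 and 9.61 in the control arrays, 9.26, 9.86, 8.92 and 9.67 in the intact-mated arrays and 8.50, 8.91, 8.15 and 7.90 in the vasectomised-mated arrays. *Scd1* varied among pools of every group, and its 2.09-fold difference between the mated groups, 1.06 ± 0.25 (SE, adjusted p = 0.0508), just missed the threshold. *Acly*, which supplies cytosolic acetyl-CoA to both arms, had its vasectomised pools below all intact and control pools. *Acly* read 10.01, 10.04, 10.10 and 10.42 in the control arrays, 10.20, 10.43, 10.17 and 10.41 in the intact-mated arrays and 9.89, 9.97, 9.86 and 9.82 in the vasectomised-mated arrays. The differences were 0.42 ± 0.10 (SE, adjusted p = 0.0447) between the mated groups and -0.26 ± 0.10 (SE, adjusted p = 0.168) between the vasectomised group and controls.

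*Acss2*, *Me1*, *Fads1* and *Fads2* were, like *Fasn*, *Scd1*, *Scd2* and *Acly*, called in no comparison. *Acss2*, which makes acetyl-CoA from acetate, gave -0.20 ± 0.10 (SE, adjusted p = 0.25) from controls and 0.10 ± 0.10 (SE, adjusted p = 0.669) between the mated groups, and *Me1*, malic enzyme, gave 0.04 ± 0.10 (SE, adjusted p = 0.86) and 0.05 ± 0.10 (SE, adjusted p = 0.864). *Fads1* and *Fads2*, desaturases of polyunsaturated fatty acids, were set apart by their controls. *Fads1* read 8.93, 8.95, 7.70 and 7.81 in the control arrays, 7.55, 8.03, 7.86 and 8.23 in the intact-mated arrays and 8.62, 7.85, 7.84 and 8.12 in the vasectomised-mated arrays. Control arrays 1 and 2 exceeded control arrays 3 and 4 by over 1 log2 unit, a gap wider than any between group means of the gene. *Fads2* ran from 7.85 to 8.86 in controls, with control array 3 lowest.

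To set the arms side by side, each gene was centred on its control mean and averaged over its arm in each array. The sterol arm then read -0.38, -0.11, 0.02 and 0.47 in control arrays 1 to 4, 0.61, 0.83, 0.48 and 0.73 in the intact arrays and -0.24, -0.01, -0.35 and -0.59 in the vasectomised arrays. Control array 4 came within 0.007 of intact array 3, and no control or vasectomised pool exceeded an intact pool. The fatty acid arm read -0.02, 0.06, -0.19 and 0.16 in controls, 0.05, 0.29, -0.03 and 0.24 in the intact arrays and -0.12, -0.15, -0.33 and -0.34 in the vasectomised arrays, so that intact and control pools overlapped and the vasectomised pools lay under the intact pools. The regulators averaged 0.25 ± 0.05 in intact pools, 0 ± 0.13 in controls and -0.05 ± 0.10 in vasectomised pools (SD, n = 4).

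The sterol arm minus the fatty acid arm was 0.53 ± 0.03 (SD, n = 4) in the intact group, with pools at 0.56, 0.55, 0.51 and 0.49. In controls it was 0 ± 0.32, with pools at -0.36, -0.17, 0.21 and 0.31, and in the vasectomised group -0.06 ± 0.16, with pools at -0.12, 0.14, -0.02 and -0.24. The intact pools were thus higher than all 8 others on this difference, and the vasectomised pools lay inside the control range. The mean of the intact group exceeded that of controls by 0.53 and that of the vasectomised group by 0.59, against a pooled SD of 0.206, a description without a test since the genes were chosen with results known. The gap to controls was 0.79 with control arrays 1 and 2 alone and 0.26 with control arrays 3 and 4 alone.

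**Figure D3:**
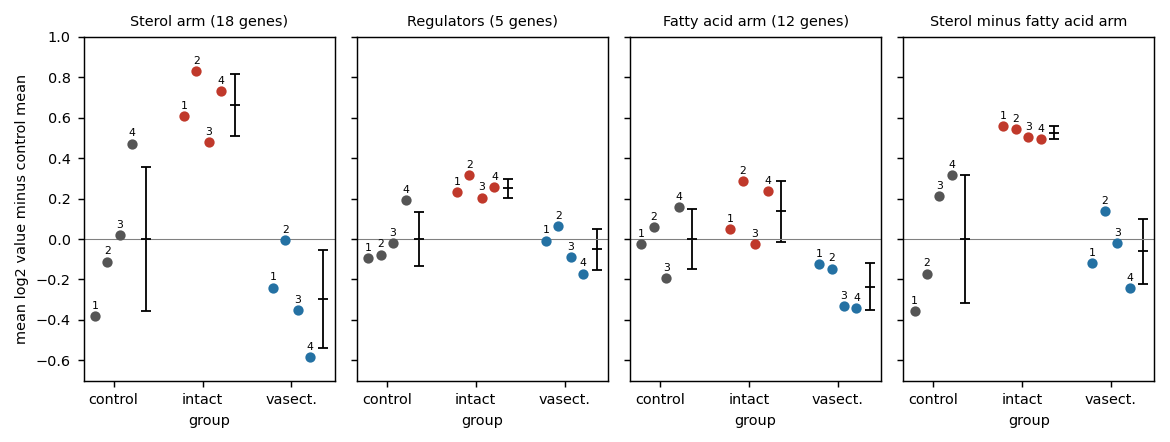
Mean log2 value minus control mean over the genes of each arm, 1 numbered point per array, with the group mean and SD (n = 4) as bars. The 4 intact-mated arrays sit between 0.48 and 0.83 in the sterol arm and between 0.49 and 0.56 in the difference of the arms, above all other arrays in both.

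Within each group the same pools tended to hold the highest and the lowest values of the sterol genes. In the sterol arm control array 4 was the highest control for 16 of 18 genes and control array 1 the lowest for 16, intact array 2 was highest for 14 and intact array 3 lowest for 14, and vasectomised array 2 was highest for 16 and vasectomised array 4 lowest for 14. The median SD within a group was 0.37 for controls, 0.18 for the intact group and 0.24 for the vasectomised group, beside 0.14, 0.10 and 0.09 over the 14929 clusters at least as bright as the dimmest of the 35 genes. Control pools thus spread most. Control array 4 lay above the lowest intact pool in 9 of the 18 genes. With control arrays 3 and 4 alone, 4 of the 35 genes were called higher in the intact group than in controls, and with control arrays 1 and 2 alone 17 were.

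Other genes of these pathways were read from a list of 22 sterol genes, of which 13 were measured, and 30 fatty acid genes, of which 26 were. Of the 13 sterol genes 2 were called higher and 0 lower in the intact group than in controls, beside 1.95% and 1.55% of all clusters. In the vasectomised group 1 was called higher than in controls, beside 0.987%, and between the mated groups 1 was called higher, beside 0.394%. *Msmo1*, the methylsterol oxidase between *Cyp51* and *Nsdhl*, was the one between the mated groups. *Msmo1* read 9.73, 10.36, 10.21 and 10.86 in the control arrays, 11.27, 11.43, 11.04 and 11.31 in the intact-mated arrays and 10.11, 10.45, 10.02 and 9.22 in the vasectomised-mated arrays. Its intact pools overlapped no others, and its differences of 0.98 ± 0.26 (SE, adjusted p = 0.0299) and 1.32 ± 0.26 (SE, adjusted p = 0.0235) lay between those of *Nsdhl* and *Cyp51* in both comparisons. *Rnf145*, a ubiquitin ligase of the sterol feedback, had another pattern. *Rnf145* read 10.14, 10.27, 9.64 and 9.69 in the control arrays, 11.05, 11.10, 11.02 and 11.08 in the intact-mated arrays and 10.54, 10.52, 10.69 and 10.65 in the vasectomised-mated arrays. It rose in both mated groups, by 1.13 ± 0.12 (SE, adjusted p = 0.000113) and 0.67 ± 0.12 (SE, adjusted p = 0.0113) over controls, and the mated groups differed by 0.46 ± 0.12 (SE, adjusted p = 0.0748). Control arrays 1 and 2 were its higher controls, unlike in the sterol arm.

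Of the 26 fatty acid genes 4 were called higher and 0 lower in the intact group than in controls, beside 1.95% and 1.55% of all clusters. Between the vasectomised group and controls 0 were called in either direction. At an unadjusted p under 0.05, 5 were higher and 6 lower there, beside 11.8% and 7.09% of all clusters. Between the mated groups 2 were called higher, beside 0.394%. *Aacs*, which activates acetoacetate for lipid synthesis, was called in both comparisons of the intact group. *Aacs* read 8.36, 8.54, 8.54 and 9.03 in the control arrays, 9.40, 9.52, 9.33 and 9.57 in the intact-mated arrays and 8.70, 8.97, 8.57 and 8.35 in the vasectomised-mated arrays. Its intact pools lay above all others, by 0.84 ± 0.15 (SE, adjusted p = 0.00327) and 0.81 ± 0.15 (SE, adjusted p = 0.018). *Dgat2*, which makes triglyceride, *Lpin2*, a second lipin, and *Thrsp*, a lipogenic protein, rose over controls by 0.74, 0.63 and 0.60 on the log2 scale, with adjusted p of 5.43e-05, 0.000891 and 0.000775. *Rdh11*, a retinol dehydrogenase that also reduces retinal, was higher by 0.72 ± 0.15 (SE, adjusted p = 0.0278) in the intact than in the vasectomised group. Its difference from controls was 0.15 ± 0.15 (SE, adjusted p = 0.609) in the intact group. In the vasectomised group it was -0.56 ± 0.15 (SE, adjusted p = 0.0519), with all vasectomised pools below all controls. The medians of these other lists were 0.13 and 0.01 over controls and 0.03 and 0.11 between the mated groups.

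Markers of other cells were read on the same arrays. Of 8 neutrophil genes 3 (*S100a9*, *Csf3r* and *Cxcr2*) were called higher in the intact group in both of its comparisons. The shares of all clusters were 1.95% over controls and 0.394% over the vasectomised group. Between the vasectomised group and controls, where 0.987% of all clusters were called higher and 0.439% lower, 0 of the 8 genes were called. Their list averaged 0.38, 0.93, 0.60 and 0.84 in the intact arrays relative to the control mean, between -0.05 and 0.02 in controls and between 0.01 and 0.21 in vasectomised arrays. *Ly6g*, also on the list, had differences of opposite sign that did not pass the test, -0.44 ± 0.25 (SE, adjusted p = 0.33) and -0.27 ± 0.25 (SE, adjusted p = 0.633), and its intact pools lay below all vasectomised pools. The mean signal was 5.74 for *S100a8*, 6.45 for *S100a9* and 9.81 for *Ly6g*. Within controls the list mean spanned 0.06, but its members did not all stay level. *Ly6g* read 9.60, 9.32, 10.48 and 10.67 in control arrays 1 to 4, and *Csf3r* read 6.87, 6.59, 6.30 and 6.29. The part of the neutrophil genes in the sterol result was not tested. Of 6 epithelial markers 0 were called in any comparison by limma, and their list averaged between -0.06 and 0.10 on all 12 arrays. Between the mated groups *Krt8* and *Krt19* were higher in all intact than in all vasectomised pools, by 0.16 ± 0.06 (SE, adjusted p = 0.225) and 0.19 ± 0.06 (SE, adjusted p = 0.146). *Cdh1* was lower in all, with a difference of -0.13 ± 0.06 (SE, adjusted p = 0.277). These 3 had an unadjusted p under 0.05, beside 7% of all clusters higher and 10.2% lower. At that level 0 epithelial markers differed between either mated group and controls. Their part in the sterol result was not tested either. Fat, ovary and smooth muscle lists gave 1 of 7, 0 of 4 and 0 of 5 called in either mated group against controls, the 1 being *Pparg*, which other cells also express, and 0 between the mated groups.

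Stromal, dividing cell and clock genes differed between mated females and controls. *Pgr*, the progesterone receptor, fell in both mated groups, by 1.99 and 1.34 on the log2 scale. It was the only one of 6 stromal genes called, beside 1.55% and 0.439% of all clusters called lower. The stromal list averaged 0.49 and 0.41 in control arrays 1 and 2 and -0.42 and -0.48 in control arrays 3 and 4, between -1.06 and -0.42 in intact arrays and between -0.68 and -0.12 in vasectomised arrays. Of 5 dividing cell genes 4 were called lower in the intact group than in controls, led by *Mki67* at -2.46, beside 1.55% of all clusters. Between the vasectomised group and controls 0 of the 5 were called, beside 0.439% of all clusters lower. At an unadjusted p under 0.05 all 5 were lower in each mated group than in controls. The shares of all clusters lower at that level were 11.1% for the intact and 7.09% for the vasectomised group. The dividing cell list read -0.95, 0.71, -0.54 and 0.78 in the controls. Of 10 clock genes 6 were called lower in the intact group and 5 in the vasectomised group than in controls. The shares of all clusters were 1.55% and 0.439%. Between the mated groups 0 stromal, 0 dividing cell and 0 clock genes were called in either direction by limma. At an unadjusted p under 0.05 the counts were 1, 0 and 3, all lower in the intact group, beside 10.2% of all clusters lower. The part of these lists in the comparisons with controls was not tested. Macrophage markers gave 0 of 5 calls in all 3 comparisons. *Cd68*, the brightest of them, was higher without overlap in both mated groups than in controls, but under 1.5-fold. Its differences were 0.45 ± 0.09 (SE, adjusted p = 0.00631) in the intact and 0.46 ± 0.09 (SE, adjusted p = 0.0125) in the vasectomised group. In each of these comparisons 3 of the 5 markers had negative differences. *Dsg3*, 1 of 4 squamous genes, was 1.04 higher in the intact group than in controls.

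**Figure D4:**
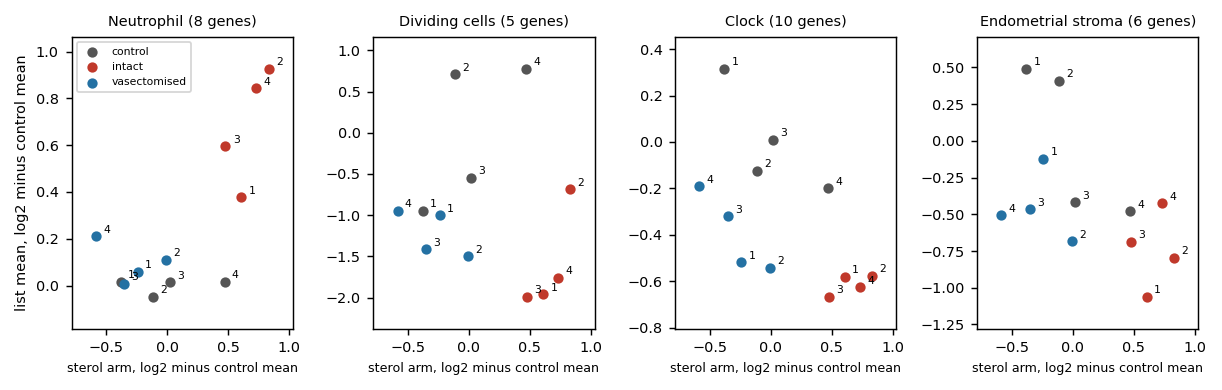
Mean of 4 marker lists against the mean of the sterol arm, both as log2 values minus the control mean, 1 numbered point per array. The intact-mated arrays stand at 0.38 to 0.93 for the mean of the neutrophil list, above all others. The control arrays have neutrophil list means between -0.05 and 0.02, in which single genes can offset each other.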

How the data were processed

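The 12 arrays (Affymetrix Mouse Gene 1.0 ST) held endometrial RNA of 3 groups of 4 pools. The authors imported the arrays into Partek with RMA background correction, a correction for probe GC content and mean summarization of probes, and deposited log2 values for 35556 transcript clusters. For the Partek version and for normalization between arrays, details were not given in the sources used here. Arrays were grouped by their labels, and 0 per-array columns were left unused.

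Symbols came from the array annotation, 35 of the 35 genes matched the reference table, and 21789 clusters carried 1 symbol. The 3 group means of every cluster were estimated jointly from the 12 arrays (limma 3.58.1 in R 4.3.3, eBayes without trend, 9 residual and 3.26 prior degrees of freedom), and p-values were Benjamini-Hochberg adjusted over all clusters. The code was tested on simulated data. The call thresholds of 1.5-fold and adjusted p = 0.05 are those of the study's methods. The number of arrays limits the precision, and the p-values measure the spread between pools.

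The 35 genes, their arms, the other pathway and marker lists and the tests were chosen with earlier results of these data known. Every gene of the 35 may be named, and those called or without overlap between groups are given array by array. Genes of the other pathway lists are named where called. Of the marker lists only a part of the genes is named, and not every called marker is among them. Alternatives were quantile normalization, median centring, trended and robust moderation, the methods' ANOVA without moderation, weights per array, removal of dim clusters, fits restricted to the compared pair of groups, a block for replicate number, correction over 1 cluster per gene, the mean of a gene's clusters, other fold thresholds, for the arm difference also medians and bright genes alone, and leaving out each array. Splitting the controls into arrays 1 and 2 or 3 and 4 was added after earlier results on that split were seen. Promoter windows were RefSeq sequences on GRCm38.p6 and no genome was used.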

Additional observations from a re-analysis of the deposited data

Results flagged for a closer look

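Among 105 groups of 4 values tested, 3 held a value set apart from the rest, beside the 5.25 that chance at 1 in 20 would give. *Fdft1* in intact array 3 read 11.05, while the other intact pools read 11.43 to 11.50. *Acaca* in the same pool read 9.39, with the others at 9.61 to 9.64. *Insig2* in intact array 4 read 9.15, with the others at 9.36 to 9.39. Intact array 3 was also the lowest intact pool for 26 of the 35 genes. Why these pools differ was not tested.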

How the results depend on the processing

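Of 28 called gene comparisons, 8 were called under every alternative, *Mvd*, *Cyp51* and *Hsd17b7* in both comparisons of the intact group and *Lss* and *Dhcr7* over the vasectomised group, and 3 more under all but the 2-fold threshold. Over all alternatives 579 of 692 values kept the call, 113 lost it and 0 changed sign. Of 77 comparisons not called, 24 gained a call under some alternative and 20 changed sign. Genes higher in the intact group than in controls, 9 as reported, were 5 at 2-fold, 17 with control arrays 1 and 2 only, 4 with control arrays 3 and 4 only and 7 to 13 with 1 array left out. The 1 lower gene became 0 at 2-fold and 2 with control arrays 1 and 2 only, and stayed 1 with each array left out. Genes lower in the vasectomised group than in controls, 0 as reported, were 4 with control arrays 3 and 4 only and 0 to 1 with 1 array left out, while 0 were higher in all runs. Genes higher in the intact than in the vasectomised group, 18 as reported, were 8 under the methods' ANOVA, 11 with the replicate block, 9 at 2-fold and 6 to 20 with 1 array left out, and 1 was lower (*Gpam*) with no fold threshold. Leaving out an array also removes residual degrees of freedom over all clusters, and the cause of the other shifts was not tested. The sterol arm minus the fatty acid arm, intact minus control, was 0.79 with control arrays 1 and 2 only, 0.26 with control arrays 3 and 4 only and 0.41 to 0.63 with 1 array left out. For vasectomised minus control it was 0.20 with control arrays 1 and 2 only, -0.32 with control arrays 3 and 4 only and -0.18 to 0.04 with 1 array left out, changing sign without control array 3 (0.0099), control array 4 (0.044) or vasectomised array 4 (0.00047). Between the mated groups it was 0.53 to 0.65 with 1 array left out.

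Replicate numbers gave no pairing. Deviations of same-numbered arrays correlated between -0.255 and 0.205, 2 of 12 pairs exceeded 0.1, and in 6 of 24 cases an array correlated best with its own number. The replicate block left 8 genes higher over controls. Second clusters of 5 genes, in 15 gene comparisons, gave another call in 3 and another sign in 2, both of *Me1*, whose values lay near 0.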
